A study of Mus musculus with 9 samples.

Results

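Carboxylesterases are serine hydrolases of the endoplasmic reticulum that split esters, amides and thioesters. They convert ester drugs and pesticides, and several members also hydrolyse triglyceride, cholesteryl ester or retinyl ester stores. In the small intestine they sit in absorptive cells, where they meet swallowed ester compounds first, and in the mouse the Ces1 and Ces2 genes form tandem arrays of close copies. Several are classic targets of the xenobiotic receptors CAR (Nr1i3) and PXR (Nr1i2), which also switch on Cyp2b, Cyp2c and Cyp3a genes.

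The 9 genes described here are Ces1d, Ces1e, Ces1f and Ces1g of the Ces1 group and Ces2a, Ces2b, Ces2c, Ces2e and Ces2g of the Ces2 group, found by symbol among 54838 Ensembl mouse gene identifiers. They were chosen by measured FPKM differences, since Ces1d was among the largest falls with 4-OHT and Ces2a rose with Nec-1. Their differences in those 2 contrasts are therefore given as a description, with no test. The other 11 carboxylesterase genes in the files were Ces1a, Ces1b, Ces1c, Ces1h, Ces2d-ps, Ces2f, Ces2h, Ces3a, Ces3b, Ces4a and Ces5a.

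The values were gene-level FPKM (fragments per kilobase of transcript, scaled to library size) from 7 RNA-seq libraries of mouse small-intestinal organoids, and 2 Atf3 CUT&Tag samples of the series were not analysed here. All organoids carried Vil-CreERT2;Mettl3 fl/fl, came from crypts of male mice aged 2 to 4 months (C57BL/6 in the labels), and grew in ENR medium. Villin drives the tamoxifen-dependent Cre in epithelial cells, and 4-hydroxytamoxifen (4-OHT) activates it to delete Mettl3, the catalytic subunit of the m6A RNA methyltransferase. The groups were EtOH DMSO (2 libraries), EtOH Nec-1 (2), 4-OHT DMSO (2) and 4-OHT Nec-1 (1). EtOH or 500 nM 4-OHT was given for 2 days, and DMSO or Nec-1 (necrostatin-1, an inhibitor of the kinase RIPK1) for 5 days. Nec-1 is listed at 5 µM in one protocol description and at 10 µM in another. No group without Cre received 4-OHT, so an effect of 4-OHT and one of the deletion cannot be told apart, and the sources do not say whether replicates came from separate cultures or animals, so the p-values measure only the spread between these libraries.

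Mettl3 itself measured 2.70 and 2.71 FPKM in EtOH DMSO and 2.41 and 2.47 in EtOH Nec-1. The libraries labelled 4-OHT DMSO had 3.72 and 4.14 FPKM and the one labelled 4-OHT Nec-1 had 3.36, so the targeted gene was not reduced there. A gene-level value does not show whether an exon was removed, so directions with 4-OHT rest on the labels. The epithelial label held in most markers: Vil1, the villin of the brush border, was at 102 to 159 FPKM, while Col1a1, Pecam1 and Ptprc of mesenchymal, endothelial and immune cells were each under 0.2 FPKM. Cd68, an immune marker of the same list, was the exception. It was at 0.774 and 2.01 FPKM in EtOH DMSO and at 5.69 and 7.72 in 4-OHT DMSO. FPKM summed to 450207 to 498712 a library, 11559 to 12038 genes reached 1 FPKM, and relative depths, read from the steps of low values, were 0.853 to 1.03 times the depth of EtOH DMSO library 1.

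The genes lie in 2 arrays on chromosome 8 (RefSeq positions on GRCm38.p6, the assembly also named mm10). The Ces1 array of 8 genes ran from chr8:93020214 to 93379777, and the Ces2 array of 8 genes from chr8:104734003 to 105020410. Ces1d (ENSMUSG00000056973) spanned chr8:93166072-93197804. Its neighbours Ces1e (ENSMUSG00000061959), Ces1f (ENSMUSG00000031725) and Ces1g (ENSMUSG00000057074) lay at chr8:93201218-93229631, chr8:93256236-93279766 and chr8:93302369-93337209. In the Ces2 array Ces2a (ENSMUSG00000055730) came first at chr8:104734003-104741634, followed by Ces2b (ENSMUSG00000050097) at chr8:104828494-104840093 and Ces2c (ENSMUSG00000061825) at chr8:104847068-104854483. Ces2e (ENSMUSG00000031886) at chr8:104926260-104934672 and Ces2g (ENSMUSG00000031877) at chr8:104961596-104969537 closed the set. Near-identical copies can share fragments, so a value of 1 member can hold fragments of another.

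Ces2a, Ces2c and Ces2e lie in 1 array, where Ces2a had the largest and Ces2e the smallest log2 difference with Nec-1 in EtOH organoids and Ces2c one between them, and their upstream DNA is shown to let their shared letters be seen. RefSeq upstream sequence was at hand for 6 of the 9 genes (Ces1e, Ces1g, Ces2a, Ces2c, Ces2e and Ces2g), and Ces1d, Ces1f and Ces2b are named only. Each line gives the 250 bases before the RefSeq start, on the plus strand of GRCm38.p6, at chr8:104733753-104734002 for Ces2a, chr8:104846818-104847067 for Ces2c and chr8:104926010-104926259 for Ces2e. Capitals mark runs of at least 10 bases also found upstream of another Ces2 gene of the set.
Ces2a: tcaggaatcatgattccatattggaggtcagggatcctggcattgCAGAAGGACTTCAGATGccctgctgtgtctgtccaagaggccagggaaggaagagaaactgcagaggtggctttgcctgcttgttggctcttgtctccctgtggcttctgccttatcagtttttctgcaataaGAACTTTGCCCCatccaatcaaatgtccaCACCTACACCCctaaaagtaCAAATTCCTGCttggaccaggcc
Ces2c: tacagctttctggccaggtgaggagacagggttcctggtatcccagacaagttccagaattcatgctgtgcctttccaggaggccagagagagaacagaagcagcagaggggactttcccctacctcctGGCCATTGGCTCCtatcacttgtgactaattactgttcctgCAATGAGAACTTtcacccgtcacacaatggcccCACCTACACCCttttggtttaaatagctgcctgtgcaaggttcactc
Ces2e: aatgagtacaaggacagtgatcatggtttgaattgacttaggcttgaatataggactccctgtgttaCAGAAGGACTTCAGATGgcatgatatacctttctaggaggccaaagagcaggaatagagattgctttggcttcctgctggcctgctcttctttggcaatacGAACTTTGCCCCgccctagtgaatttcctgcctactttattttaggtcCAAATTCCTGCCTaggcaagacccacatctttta
The longest common run, CAGAAGGACTTCAGATG, was shared by Ces2a and Ces2e and spanned 17 bases, and 0 of 32835 RefSeq promoters outside the family held it. Ces2a and Ces2e were 69.9% identical over 216 aligned bases, Ces2a and Ces2c 68.3% over 243, and Ces2c and Ces2e 68.2% over 217. Ces2c shared GGCCATTGGCTCC, 13 bases holding a reversed CCAAT box, with Ces2g. The nuclear receptor motif AGGTCA, searched on both strands, was found in the Ces2a sequence alone of the 6, 226 to 221 bases before the start, and 14.0% of 32851 promoters of this length hold it. AGTTCA (11.8% of promoters), GGGTCA (11.6%), GCGTG (28.2%), CAAAGTCCA (0.384%), the palindromic HNF1 site (0.00913%) and its single arm GTTAAT, which overlaps it (6.43%), had no match in the 6. CCAAT (33.8%) was found in Ces1g, Ces2a, Ces2c and Ces2g, and TATAAA (12.4%) in Ces1g. A match is a description of letters and not a shown site.

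In EtOH DMSO the Ces2 gene Ces2e, known as a pyrethroid hydrolase, was the most abundant of the set. It was at 276 and 277 FPKM. Ces1f, a triglyceride hydrolase, followed at 189 and 179 FPKM. Ces2c (87.4 and 98.9 FPKM) and Ces2a (89.5 and 92.2 FPKM) were next, and their ranges overlapped. Ces1d, the triacylglycerol hydrolase that mobilises stored fat in liver and adipose tissue, was at 70.2 and 65.3 FPKM. Ces2g (32.0 and 36.3 FPKM), Ces1g (26.8 and 29.9 FPKM) and Ces1e (16.5 and 17.0 FPKM) were lower, and Ces2b, at 0.647 and 0.657 FPKM, was the lowest of the 9. Apart from Ces2c and Ces2a, neighbours in this order did not overlap between the 2 libraries.

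The order changed between groups. In EtOH Nec-1 Ces2a was first with a mean of 536 FPKM, before Ces1f (329), Ces2e (292), Ces2c (142), Ces1d (105), Ces1g (57.3), Ces2g (41.4), Ces1e (14.2) and Ces2b (0.929). In the libraries labelled 4-OHT DMSO Ces2e was first again (138), before Ces2c (113), Ces2a (47.2), Ces1f (31.7), Ces2g (21.8), Ces1e (4.84), Ces1g (2.88), Ces2b (1.89) and Ces1d (1.31). Ces1d thus went from the middle of the order to its end. In the library labelled 4-OHT Nec-1 Ces2a led at 448 FPKM, before Ces2c (228), Ces2e (215), Ces1f (146), Ces2g (40.2), Ces1g (15.0), Ces1e (12.3), Ces1d (8.31) and Ces2b (2.67).

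**Figure D1:**
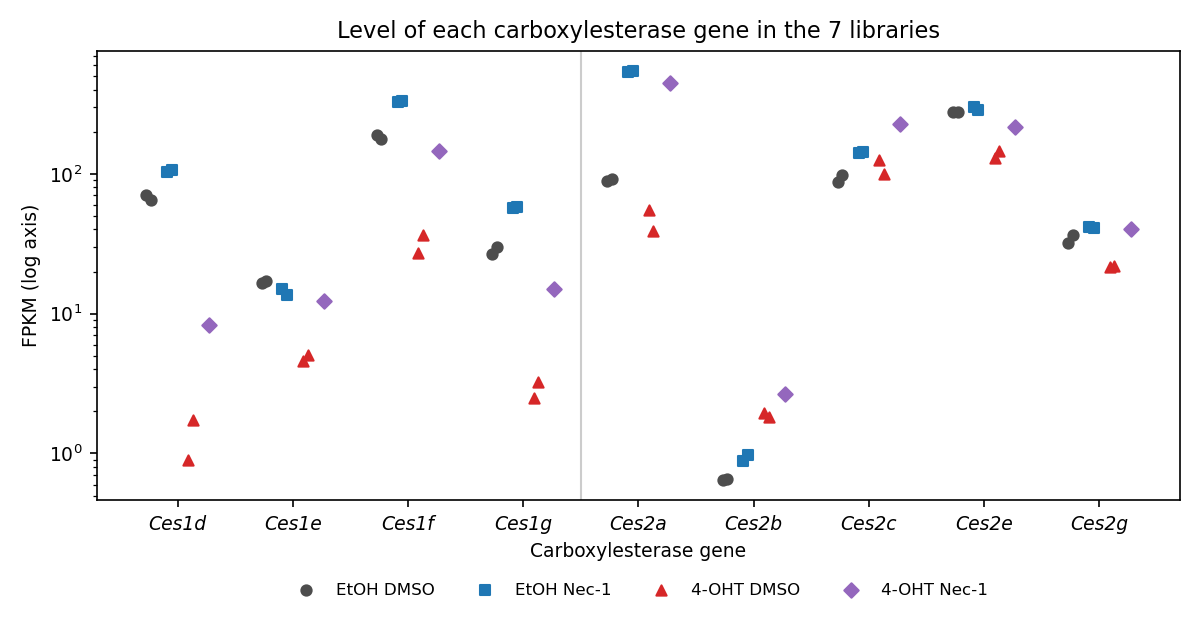
FPKM (log axis) of the 9 carboxylesterase genes, 1 point for each of the 7 libraries, coloured by group. The 4 Ces1 genes have their lowest points in the libraries labelled 4-OHT DMSO, and Ces2a has its highest in the 3 libraries with Nec-1.

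The first comparison, of 4-OHT DMSO with EtOH DMSO, asks how these genes differed with 4-OHT, given to delete Mettl3, in the absence of Nec-1. All 4 Ces1 genes were far lower in the libraries labelled 4-OHT DMSO, and the 5 Ces2 genes were split. Ces1d was at 70.2 and 65.3 FPKM in EtOH DMSO against 0.891 and 1.74 in 4-OHT DMSO. Its mean was 51.6-fold lower, and its log2(FPKM + 1) difference was -4.92 ± 0.18 (SE, n = 2 and 2). These values were among those that chose the set.

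Ces1g, which acts in lipid handling in the liver, was at 26.8 and 29.9 FPKM in EtOH DMSO against 2.51 and 3.25 in 4-OHT DMSO, 9.86-fold lower (log2 difference -2.93 ± 0.12). Ces1f was at 189 and 179 against 27.1 and 36.2 FPKM, 5.80-fold lower (-2.51 ± 0.14). Ces1e, also named egasyn because it holds β-glucuronidase in the endoplasmic reticulum, was at 16.5 and 17.0 against 4.62 and 5.06 FPKM, 3.46-fold lower (-1.60 ± 0.09). In each of these genes both 4-OHT DMSO libraries lay below both EtOH DMSO libraries. Ces1d, Ces1e, Ces1f and Ces1g, 4 of the 9, were at least 1 log2 unit lower in every pairing of libraries, as were 2.17% of the 12702 genes tested.

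The Ces2 genes differed less. Ces2e was at 131 and 146 FPKM in 4-OHT DMSO, 2.00-fold lower than in EtOH DMSO (log2 difference -0.996 ± 0.089). Ces2a was at 55.2 and 39.1 FPKM, 1.92-fold lower (-0.95 ± 0.16), and its 2 libraries differed more from each other than those of Ces2e and Ces2g. Ces2g was at 21.5 and 22.0 FPKM, 1.57-fold lower (-0.62 ± 0.09). All 3 were below both EtOH DMSO libraries.

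Ces2c, an intestinal acylcarnitine and triglyceride hydrolase, was at 126 and 100.4 FPKM in 4-OHT DMSO against 87.4 and 98.9 in EtOH DMSO (log2 difference 0.27 ± 0.13). The groups were nearly touching. Ces2b was at 1.95 and 1.82 FPKM against 0.647 and 0.657, 2.89-fold higher (0.80 ± 0.11), and it passed the filter of 1 FPKM only through the libraries labelled 4-OHT. In all, 7 of 9 members were lower in every pairing of libraries and 2 were higher, beside 30.8% and 40.7% of all genes tested. The median difference was -2.72 for the 4 Ces1 genes, -0.62 for the 5 Ces2 genes and 0.077 over all genes.

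The same contrast under Nec-1, 4-OHT Nec-1 against EtOH Nec-1, took its group means from other libraries than the comparison in DMSO. The spread behind its p-values was estimated over all 7 libraries, so the DMSO libraries entered it. In this contrast 7 members were tested. Ces2a, picked for its rise with Nec-1, was not tested. Ces2b was not tested either, since it passed the filter of 1 FPKM only through the libraries labelled 4-OHT. Ces1d was chosen for a fall with 4-OHT, without naming libraries, so its p-value here cannot be taken as independent of the choice. The 4 Ces1 genes were again lower, and Ces1d, Ces1f and Ces1g passed the test. Ces1d was at 8.31 FPKM in the library labelled 4-OHT Nec-1 against 103 and 107 in EtOH Nec-1, 12.7-fold lower (log2 difference -3.51 ± 0.22, limma adjusted p = 0.00272). Ces1g was at 15.0 against 56.5 and 58.1 FPKM, 3.81-fold lower (-1.86 ± 0.15, adjusted p = 0.00372). Ces1f was at 146 against 327 and 330 FPKM, 2.25-fold lower (-1.16 ± 0.17, adjusted p = 0.0118).

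Ces1e did not pass, at 12.3 FPKM against 15.0 and 13.5 (-0.19 ± 0.11, adjusted p = 0.280). Of the Ces2 genes, Ces2e was lower at 215 against 299 and 284 FPKM (-0.44 ± 0.11, adjusted p = 0.0434). Ces2c was higher at 228 against 142 and 143 FPKM (0.67 ± 0.16, adjusted p = 0.0385). Ces2b, untested, was at 2.67 against 0.885 and 0.972 FPKM (0.93).

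Ces2g was at 40.2 FPKM against 41.8 and 41.1 (-0.041 ± 0.11, adjusted p = 0.812) and did not pass. Ces2a, untested, was at 448 against 531 and 542 FPKM (-0.26). With Ces1d set aside because of its choice, Ces1f, Ces1g and Ces2e were called lower and Ces2c higher. Of all 12702 genes, 7.16% were called lower and 13.9% higher (21.1% in both directions). Leaving out either EtOH Nec-1 library left Ces1d and Ces1g called and lost Ces1f (adjusted p = 0.0680 and 0.0685), Ces2c and Ces2e, and the 1 library labelled 4-OHT Nec-1 was assumed to vary like the groups of 2. Whether the Ces1d difference was smaller with Nec-1 than without was not tested.

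**Figure D2:**
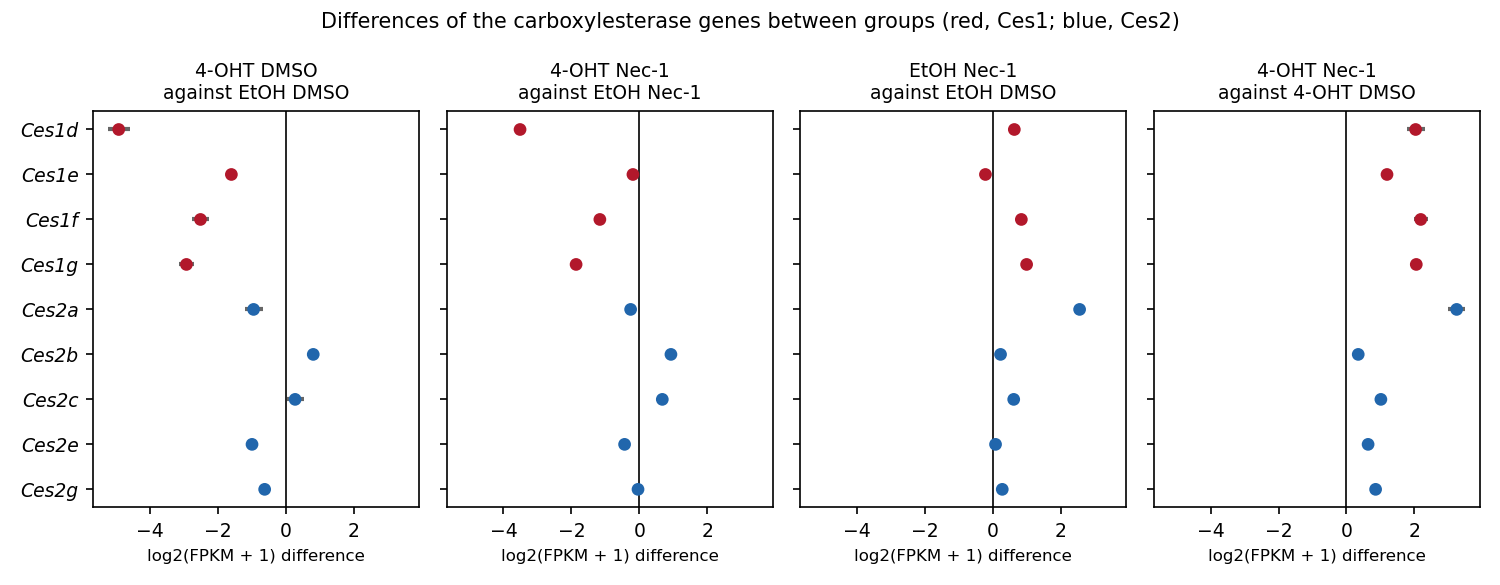
Difference in log2(FPKM + 1) of each gene in 4 comparisons (first group minus second), points for the mean and grey lines from the lowest to the highest pairing of libraries, with Ces1 genes in red and Ces2 genes in blue. The Ces1 genes, Ces2a, Ces2e and Ces2g lie left of 0 in both comparisons of 4-OHT with EtOH, Ces1d farthest and Ces2g close to 0 under Nec-1 (-0.041). Ces2a lies farthest to the right in both comparisons of Nec-1 with DMSO.

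The third comparison asks what Nec-1 did in organoids that kept Mettl3. Ces2a was far higher with Nec-1, by more than any other member. It was at 89.5 and 92.2 FPKM in EtOH DMSO against 531 and 542 in EtOH Nec-1, 5.91-fold higher (log2 difference 2.55 ± 0.16). This value helped to choose the set, and it made Ces2a the only member at least 1 log2 unit higher in every pairing, a bound that 0.346% of all genes passed.

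Ces1g was 2.02-fold higher (56.5 and 58.1 FPKM, log2 difference 0.99), Ces1f 1.79-fold (327 and 330 FPKM, 0.84) and Ces1d 1.55-fold (103 and 107 FPKM, 0.63) in EtOH Nec-1 than in EtOH DMSO. Ces2c was 1.53-fold higher (142 and 143 FPKM, 0.61). Smaller differences were found for Ces2g (41.8 and 41.1 FPKM, 0.27), Ces2b (0.885 and 0.972 FPKM, 0.22) and Ces2e (299 and 284 FPKM, 0.076). The level of Ces1e was the exception, at 15.0 and 13.5 FPKM against 16.5 and 17.0 (log2 difference -0.22). Thus 8 of 9 members were higher in every pairing and 1 lower, beside 10.5% and 39.1% of all genes. The median was 0.61 over the 9 genes and -0.094 over all genes.

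In the libraries labelled 4-OHT, where only 1 library had Nec-1 and the differences are given with no test, every one of the 9 genes was higher with Nec-1 than in both DMSO libraries, beside 24.5% of 12036 genes. Ces2a was at 448 FPKM against 55.2 and 39.1, with a log2 difference of 3.24. Ces1d was at 8.31 FPKM against 0.891 and 1.74, 6.33-fold higher (2.03). Ces1g was 5.22-fold higher (15.0 against 2.51 and 3.25 FPKM), Ces1f 4.61-fold (146 against 27.1 and 36.2 FPKM) and Ces1e 2.55-fold (12.3 against 4.62 and 5.06 FPKM).

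Those 5 genes were at least 1 log2 unit above both DMSO libraries, as were 0.764% of the genes. Ces2c was at 228 FPKM against 126 and 100.4 (2.01-fold), Ces2g at 40.2 against 21.5 and 22.0 (1.85-fold), Ces2e at 215 against 131 and 146 (1.56-fold) and Ces2b at 2.67 against 1.95 and 1.82 (1.41-fold). Ces1d remained below its level in EtOH DMSO in spite of the higher value with Nec-1, and so did Ces1f, Ces1g, Ces1e and Ces2e, while Ces2a, Ces2b, Ces2c and Ces2g lay above theirs. The 4 comparisons share libraries in pairs, so their differences are not independent of each other.

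Added up, the 9 genes came to 788 and 796 FPKM in EtOH DMSO and to 1516 and 1520 with Nec-1, against 371 and 356 in the libraries labelled 4-OHT DMSO and 1116 in that labelled 4-OHT Nec-1. They held 0.165% and 0.177% of all FPKM of the EtOH DMSO libraries and 0.304% and 0.310% with Nec-1. In 4-OHT DMSO this was 0.0760% and 0.0731%, and 0.224% with Nec-1. The Ces1 genes made up 38.4% and 36.5% of the sum in EtOH DMSO, and 33.1% and 33.5% in EtOH Nec-1. With 4-OHT their part was 9.49% and 13.0% without Nec-1, and 16.3% with it. Ces2a was 11.4% and 11.6% of the sum in EtOH DMSO but 35.0% and 35.6% with Nec-1, and 40.2% in the library labelled 4-OHT Nec-1. Ces2c was 11.1% and 12.4% in EtOH DMSO and 34.0% and 28.2% in 4-OHT DMSO, where Ces2e and Ces2c together held most of the sum.

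**Figure D3:**
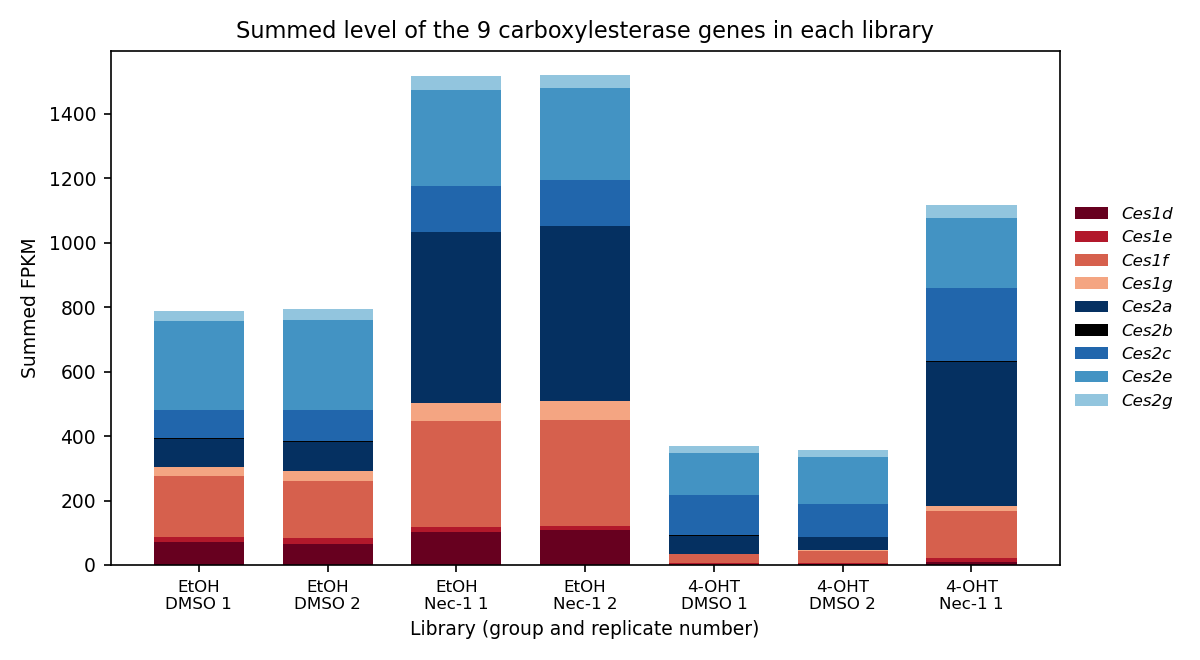
Summed FPKM of the 9 genes in each library, stacked by gene, Ces1 genes in reds and Ces2 genes in blues and black. The bars of the libraries labelled 4-OHT DMSO (371 and 356) are the shortest and hold little red, and the dark blue Ces2a band widens in the 3 libraries with Nec-1.

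The other carboxylesterases were low. Ces1b, of the Ces1 array, was at 3.01 and 3.20 FPKM in EtOH DMSO and at 6.21 and 6.32 with Nec-1. With 4-OHT it was at 0.467 and 0.322 FPKM, and at 4.96 when Nec-1 was added. It fell with 4-OHT (log2 difference -1.56, limma adjusted p = 0.000619), and with Nec-1 in EtOH organoids it differed by 0.83 (adjusted p = 0.0805). Ces1c stayed at 1.66 to 3.30 FPKM and was not called (4-OHT against EtOH 0.27, adjusted p = 0.186). The pseudogene Ces2d-ps was at 7.51 FPKM in 1 EtOH Nec-1 library and 0.681 in the other, so its difference (1.41, adjusted p = 0.470) rests on 1 library. The remaining 8 stayed under 1 FPKM in all 7 libraries, and Ces1a, Ces4a and Ces5a were listed at 0.

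Protein-coding genes next to the arrays were set beside the members. Cbfb, above the Ces2 array, rose slightly with 4-OHT (0.28, limma adjusted p = 0.0477). Ciao2b (0.20, adjusted p = 0.312) and D230025D16Rik (-0.10, adjusted p = 0.667) were not called. Lpcat2, Slc6a2, Gnao1 and Rrad were under 1 FPKM in every library. In EtOH Nec-1 against EtOH DMSO 0 of Cbfb, Ciao2b and D230025D16Rik passed in limma, and 1, D230025D16Rik, had an unadjusted p under 0.05 (-0.45, adjusted p = 0.360).

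Of 15 tested drug-metabolising genes inducible through CAR and PXR, 6 rose and 0 fell in EtOH Nec-1 against EtOH DMSO (13 and 0 at an unadjusted p under 0.05), a comparison in which 0.22% of all genes were called (limma, 0.173% higher and 0.0472% lower). Cyp3a25 (4.57 and 5.05 FPKM against 68.8 and 67.9, log2 difference 3.58, adjusted p = 0.000127) and Cyp2c55 (35.9 and 35.1 against 350.4 and 329, 3.22, adjusted p = 0.000537) rose most, beside 2.55 for Ces2a. Without either EtOH Nec-1 library 3 of the list were called, without either EtOH DMSO library 4, and without either 4-OHT DMSO library 10.

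With 4-OHT in DMSO, 10 of the 15 fell and 1 rose, beside 16.7% and 24.5% of all genes. Ugt1a1 (-1.95, adjusted p = 0.00166) and Cyp2b10 (-1.68, adjusted p = 0.000641) fell most, and Cyp3a13 rose (0.48, adjusted p = 0.00701). Under Nec-1 in both groups (4-OHT Nec-1 against EtOH Nec-1), 3 fell, led by Cyp3a25 (-1.55, adjusted p = 0.00306) and Cyp2b10 (-1.49, adjusted p = 0.00476), and 3 rose, led by Cyp3a13 (0.77, adjusted p = 0.00783) and Abcc2 (0.59, adjusted p = 0.0462), but 0 rose and 2 fell without either EtOH Nec-1 library. Among all genes 7.16% fell and 13.9% rose in 4-OHT Nec-1 against EtOH Nec-1. The median of the list was 1.18 with Nec-1 in EtOH organoids and -0.68 with 4-OHT, against 0.61 and -0.996 for the 9 carboxylesterases. The 9 genes were chosen by differences with 4-OHT and Nec-1, and the list with earlier results known. These medians are therefore a description, and a shared control of the 2 sets was not tested.

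Nr1i3, which encodes CAR, was at 21.3 and 23.1 FPKM in EtOH DMSO and 22.6 and 23.2 with Nec-1, but with 4-OHT at 3.26 and 3.59, and 7.68 with both. It fell with 4-OHT (-2.39, limma adjusted p = 0.000256) and in 4-OHT Nec-1 against EtOH Nec-1 (-1.46, adjusted p = 0.00336). Nr1i2, which encodes PXR, was at 20.5 to 24.7 FPKM in all 7 libraries (4-OHT against EtOH 0.085, adjusted p = 0.512; Nec-1 against DMSO in EtOH organoids 0.097, adjusted p = 0.694). Of the 14 regulators on the list, 3 fell with 4-OHT and 2 rose in limma, beside 16.7% and 24.5% of all genes. Those that fell included Nr1i3 and Vdr, the vitamin D receptor (-0.87, adjusted p = 0.00215). The 2 that rose were Nr1h4 (0.39, adjusted p = 0.0296) and Nfe2l2 (0.34, adjusted p = 0.0220). With each library centred on its median, however, 7 of the 14 were called lower and 0 higher. Without either EtOH DMSO library, either EtOH Nec-1 library or 4-OHT DMSO library 2, 0 were called higher. With Nec-1 in EtOH organoids 0 of 14 passed in limma, and 3 had an unadjusted p under 0.05. Under Nec-1, Nfe2l2 (0.74, adjusted p = 0.00885) and Ahr (0.50, adjusted p = 0.0362) rose with 4-OHT, but 0 of the list rose without either EtOH Nec-1 library.

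Other ester and acylglycerol hydrolases, a list of 28 of which 23 were tested, had 0 calls in either direction with Nec-1 in EtOH organoids (limma; 2 at an unadjusted p under 0.05), with Aadac at 0.095 (adjusted p = 0.763) and Esd at 0.38 (adjusted p = 0.383). With 4-OHT 7 rose and 7 fell, beside 24.5% and 16.7% of all genes. Gusb, the β-glucuronidase that Ces1e holds in the endoplasmic reticulum, rose most (1.68, adjusted p = 0.000619), then Abhd6 (0.97, adjusted p = 0.00129). Bche (-1.33, adjusted p = 0.000598) and Bphl (-1.14, adjusted p = 0.00234) fell most. Under Nec-1, 6 rose with 4-OHT, led by Gusb (1.49, adjusted p = 0.00476) and Abhd6 (0.98, adjusted p = 0.00630), and 4 fell, among them Lipg (-1.03, adjusted p = 0.00828). Of all genes, 13.9% were called higher and 7.16% lower in this comparison under Nec-1. The 4 that fell include Mgll (-1.25), which reached 1 FPKM only in the EtOH libraries and so had to differ. Without EtOH Nec-1 library 1 these counts were 2 and 0, and without library 2 they were 1 and 0.

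Of 20 genes of triglyceride and retinyl ester synthesis and export, processes that carboxylesterases feed, 6 fell with 4-OHT and 2 rose in the limma fit. Beside these, 16.7% and 24.5% of all genes did so. With each library centred on its median, 14 of the 20 fell and 1 rose. Rbp2, a retinol binding protein, fell (-0.88, adjusted p = 0.00248), and Dgat2 (0.40, adjusted p = 0.0175) rose. The counts include Lrat (-0.98), which makes retinyl esters and reached 1 FPKM only in the EtOH libraries, and Bco1 (1.05), which did so only in the libraries labelled 4-OHT, so both had to differ. Without EtOH DMSO library 1 or 4-OHT DMSO library 2, 1 was called higher. With Nec-1 in EtOH organoids 0 of 20 passed in limma (4 at an unadjusted p under 0.05), with Fabp1 at -0.36 (adjusted p = 0.324) and Fabp2 at -0.27 (adjusted p = 0.443), the highest of the list in EtOH DMSO. In 4-OHT Nec-1 against EtOH Nec-1, 13.9% of all genes were called higher and 7.16% lower. Under Nec-1, 2 were called higher with 4-OHT, Fabp1 (0.89, adjusted p = 0.0154) and Bco1 (0.90), and 4 lower, among them Sar1b (-0.56, adjusted p = 0.0466) and Lrat (-0.72). These counts, again with Bco1 and Lrat, became 1 and 2 without either EtOH DMSO library and 0 and 0 without either EtOH Nec-1 library.

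Because carboxylesterases sit in absorptive cells, cell type markers are set beside the results. Of 16 enterocyte markers tested, 11 fell and 4 rose with 4-OHT (16.7% and 24.5% of all genes). Those that fell included Mep1a, a brush border protease (-2.04, adjusted p = 0.00199), and Anpep (1.08, adjusted p = 0.00426) and Krt20 (0.63, adjusted p = 0.00493) rose most. With Nec-1 in EtOH organoids 2 fell, Apoa4 (-1.62, adjusted p = 0.0102) and Apoc3 (-1.50, adjusted p = 0.0323), but 0 without any 1 of the EtOH DMSO or EtOH Nec-1 libraries and 3 without either 4-OHT DMSO library (limma; 5 at an unadjusted p under 0.05 with all libraries). Summed over 17 enterocyte markers, FPKM was 2414 to 2536 in EtOH DMSO and 1984 to 2207 with Nec-1, and with 4-OHT it was 1166 to 1188 without Nec-1 and 1062 with it. In 4-OHT Nec-1 against EtOH Nec-1, 7.16% of all genes were called lower and 13.9% higher. Under Nec-1, 7 fell with 4-OHT, among them Mep1a (-1.65, adjusted p = 0.0145), and 2 rose, Anpep (1.13, adjusted p = 0.0152) and Apoa1 (0.73, adjusted p = 0.0129), which became 5 and 0 without either EtOH Nec-1 library. In 4-OHT Nec-1 against 4-OHT DMSO the enterocyte markers had a median log2 difference of 0.12, with Alpi at 1.03 and Slc2a2 at 0.73 but Apoa4 at -1.33 and Apoc3 at -0.78.

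Secretory markers rose with 4-OHT, 12 of 12 tested, led by Mmp7 (2.36, adjusted p = 0.000256) and Ang4 (2.20, adjusted p = 0.000493), and 8 rose in 4-OHT Nec-1 against EtOH Nec-1, led by Clca1 (1.79) and Ang4 (1.73), or 3 without either EtOH Nec-1 library. Of the 14 secretory markers listed, Dclk1 and Trpm5 stayed under 1 FPKM, were not tested and did not share this rise. Dclk1 was at 0.801 and 0.805 FPKM in EtOH DMSO against 0.569 and 0.567 in 4-OHT DMSO, and Trpm5 at 0.676 and 0.806 against 0.723 and 0.421. The summed FPKM of the list was 8307 to 9090 in EtOH DMSO and 9628 to 9816 with Nec-1, and with 4-OHT it was 20200 to 20946 without Nec-1 and 15663 with it. Of 8 stem cell markers, 4 fell with 4-OHT, led by Smoc2 (-1.30, adjusted p = 0.000573) and Olfm4 (-0.87, adjusted p = 0.0349), but 1 without the second EtOH DMSO library (the 4 include Lgr5, at -0.65, which reached 1 FPKM only in EtOH DMSO), and 2 fell in 4-OHT Nec-1 against EtOH Nec-1, Olfm4 (-2.04, adjusted p = 0.0106) and Smoc2 (-0.998, adjusted p = 0.00579), or 1 without either EtOH Nec-1 library. Their summed FPKM was 88.8 to 90.5 in EtOH DMSO and 65.7 to 67.8 with Nec-1, and with 4-OHT it was 60.9 to 83.8 without Nec-1 and 51.0 with it.

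Of 12 mesenchymal, endothelial and immune markers 11 were under 0.2 FPKM in every library, and Cd68 was at 0.774 to 7.72 FPKM and rose with 4-OHT (1.73, adjusted p = 0.00689). Of 9 hepatocyte and adipocyte markers 2 were tested and 0 were called in any comparison by limma (1 at an unadjusted p under 0.05, in EtOH Nec-1 against EtOH DMSO), and Adipoq, Plin1 and Lep were at or near 0. In these bulk libraries fewer enterocytes and less RNA per enterocyte cannot be told apart, and the part of cell composition in the carboxylesterase levels was not tested.

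**Figure D4:**
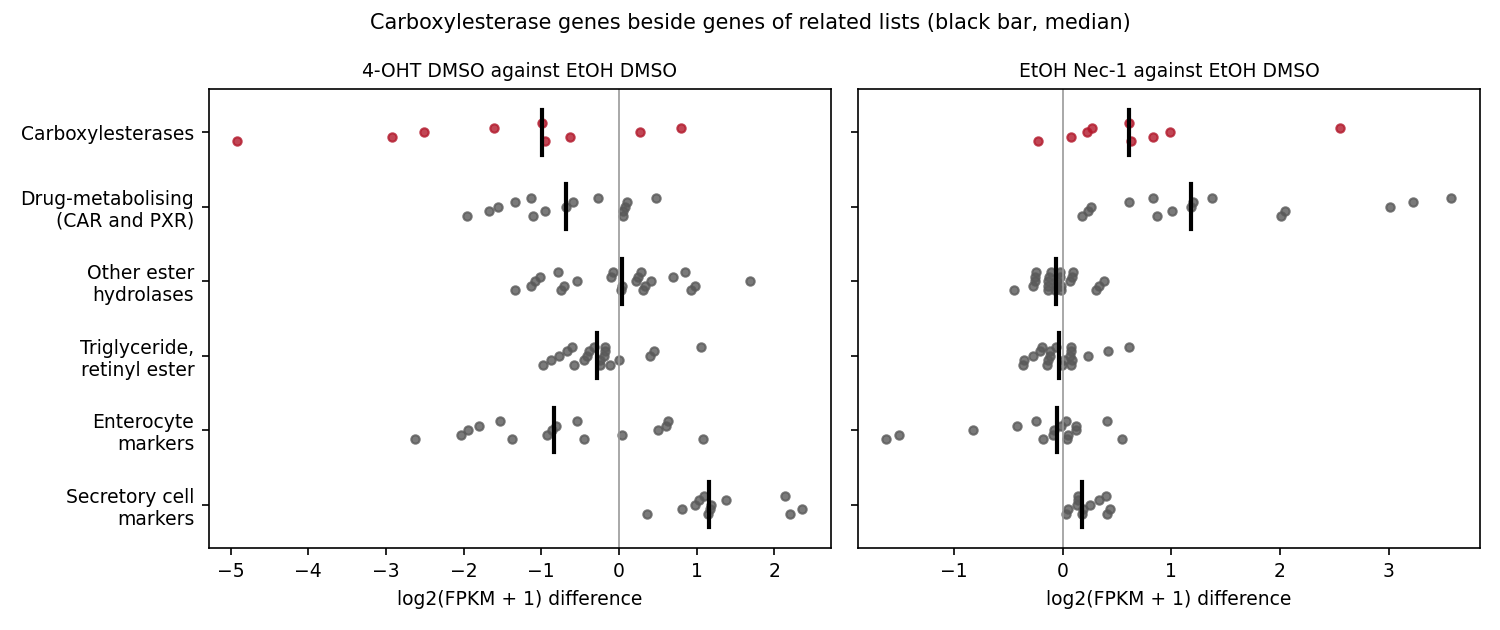
Difference in log2(FPKM + 1) of single genes, 1 point per gene, in 4-OHT DMSO against EtOH DMSO (left) and EtOH Nec-1 against EtOH DMSO (right), for the 9 carboxylesterases and the tested genes of 5 lists, with the median as a black bar. On the right the carboxylesterases (median 0.61) and the CAR and PXR list (median 1.18) have medians right of 0, with Ces1e (-0.22) left of it, while the other hydrolases lie around 0. The carboxylesterases were chosen by differences with 4-OHT and Nec-1.

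Across the 7 libraries the genes whose log2(FPKM + 1) profile was closest to that of Ces1d, among 3815 tested genes spanning at least 1 log2 unit, were Hacl1 (Pearson r = 0.998), Gm2999 (0.998), Cth (0.998), Gm13657 (0.997) and Tkfc (0.995). For Ces2a they were Cyp2c55 (0.991), Osbpl9 (0.986), Cyp2c66 (0.985), Gm12498 (0.979) and Pgrmc1 (0.979), 2 of them on the CAR and PXR list. For Ces2e they were Acsf2 (0.997), Pbld2 (0.995), Fam234a (0.994), Slc22a13b-ps (0.993) and Hsd17b13 (0.992). Within the family Ces1d was close to Ces2e (0.982), Ces1g (0.976) and Ces1f (0.952), less so to Ces2a (0.596), and opposite to Ces2b (-0.819). These are descriptions over 7 libraries that share the same 4 groups. Ces1d and Ces2a were picked for differences between these groups, so genes with like differences come out close to them by that choice.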

How the data were processed

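Organoid RNA was prepared with a total RNA kit and a NEBNext Ultra library kit. The submitters' processing notes name HISAT2 2.1.0, StringTie 1.3.3b and mm10, and the authors deposited FPKM per gene for 7 libraries. The annotation and the use of strand are not given in the sources used here. Groups came from the sample titles. Of 54838 identifiers, 54723 had a symbol, and 2 columns that repeated another file were used once.

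Tests used limma 3.58.1 (R 4.3.3) with a mean-variance trend on log2(FPKM + 1), over 12702 genes that reached 1 FPKM in 2 or more libraries, with 4 group means over 7 libraries, 3 residual degrees of freedom, Benjamini-Hochberg adjustment over all genes and a threshold of 0.05. Fold changes on this scale understate those of low genes. Scripts were tested on simulated data. A fragment count was not recovered, so depth is known only as a relative value.

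The members and lists were chosen with earlier results of these data known. Named genes were all 9 members, other carboxylesterases of at least 1 FPKM, the 2 largest rises and falls past the threshold of each list (or the 2 highest genes), flanking genes, and the 5 nearest profiles. Lists covered other carboxylesterases, other hydrolases, triglyceride and retinyl ester genes, regulators, CAR and PXR targets, and cell type markers. Alternatives changed the trend, scaling, filter, pseudocount (0.1), libraries in the fit, replicate block and each library. Some genes that these rules name are not reported here. Protein identity between members was planned and was not computed here. Upstream sequences came from RefSeq tables (GRCm38.p6), and alignments from Biopython 1.88. Figures used matplotlib 3.10.9.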

Additional observations from a re-analysis of the deposited data

Results flagged for a closer look

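Ces1e went opposite ways with Nec-1 in both kinds of organoid. Its log2(FPKM + 1) difference was -0.22 in EtOH Nec-1 against EtOH DMSO and 1.19 in 4-OHT Nec-1 against 4-OHT DMSO. Both EtOH Nec-1 libraries (15.0 and 13.5 FPKM) lay below both EtOH DMSO libraries (16.5 and 17.0), and the library labelled 4-OHT Nec-1 (12.3) lay above both of those labelled 4-OHT DMSO (4.62 and 5.06). Beside this, 39.1% of all genes were lower in every pairing of EtOH Nec-1 with EtOH DMSO, and the median over all genes was -0.094. In every pairing of 4-OHT Nec-1 with 4-OHT DMSO, 24.5% of genes were higher. For Ces1e the difference between the 2 effects was not tested, and 1 of them rests on 1 library. The 9 genes had no group of 4 or more libraries in which a single library could be examined for standing apart.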

How the results depend on the processing

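Of 385 recomputed differences of the 9 genes, 0 changed sign. In 4-OHT Nec-1 against EtOH Nec-1, Ces1d (adjusted p = 0.000647 to 0.0306) and Ces1g (0.00317 to 0.0389) were called under every alternative that could be fitted. Ces2c lost its call with median centring, with no filter, with the replicate block and without either EtOH DMSO or either EtOH Nec-1 library (0.00779 to 0.147 over all alternatives), and Ces2e without the trend, with no filter, with the block and without those same libraries (0.0150 to 0.196). Ces1f (0.00377 to 0.0685) lost its call without either EtOH Nec-1 library. Ces2b is left out here too, because it passed the filter of 1 FPKM only through the libraries labelled 4-OHT. The calls of Ces1d cannot be taken as independent of its choice for a fall with 4-OHT.

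In 4-OHT DMSO against EtOH DMSO, 3117 genes were called higher and 2120 lower, and with median centring 2213 and 3187. Leaving out 1 library gave 3650 to 5239 genes (2131 to 3112 higher, 1419 to 2127 lower). In EtOH Nec-1 against EtOH DMSO the 28 calls (22 higher, 6 lower) became 8 (6 and 2) with no filter, 87 (66 and 21) with only the libraries of the comparison, and 9 to 79 (5 to 60 and 2 to 19) with a library left out: 13 and 14 without an EtOH DMSO library, 10 and 9 without an EtOH Nec-1 library and 79 without either 4-OHT DMSO library. In 4-OHT Nec-1 against EtOH Nec-1 the 2681 calls (1771 higher, 910 lower) became 1264 and 1492 with median centring, 1672 lower with only the libraries of the comparison, and 443 to 3079 (327 to 1915 higher, 116 to 1164 lower) with a library left out, the lowest, 555 and 443, without an EtOH Nec-1 library. In 4-OHT Nec-1 against 4-OHT DMSO, 146 genes were at least 1 log2 unit lower and 92 higher, 255 lower with a pseudocount of 0.1, and 244 to 543 lower and 181 to 247 higher without a 4-OHT DMSO library. A gene had to pass against each 4-OHT DMSO library, so these last counts, without 1 of them, follow a looser rule. The causes of the other changes were not tested.

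The median over all genes shifted from 0.077 to -0.080 (4-OHT DMSO against EtOH DMSO) with centring. Libraries with the same replicate number did not deviate together: their deviations correlated at -0.040, 0.0065 and -0.012. Such values cannot show whether these libraries came from the same culture or animal. With the replicate block the calls were 4697, 19 (15 and 4) and 1617 (1142 and 475). Without the library labelled 4-OHT Nec-1, the comparisons that use it have no value. Levels near 1 FPKM, as for Ces2b and for Ces1d with 4-OHT, are the least precise.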
